A study of Mus musculus with 27 samples.

Results

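Neutrophil genes were followed through the injury and repair of mouse skeletal muscle. The 10 genes were chosen by symbol, as genes that neutrophils express strongly, and with earlier results of these data known. All 10 were found among the 55852 entries of the table of injured muscle and the 55677 entries of the table that holds the controls. They were S100a8, S100a9, Lcn2, Mmp8, Mmp9, Retnlg, Csf3r, Cxcr2, Trem1 and Ly6g. RNA of 27 libraries from the muscle of male mice was sequenced. Of these, 24 were from muscle injured by cardiotoxin (CTX, a toxin of cobra venom that destroys muscle fibres), which was collected 1, 4, 7 or 14 days later (D1, D4, D7 and D14) from wild-type (WT) mice and from mice labelled KO for Gsdme, the gene of the pore-forming protein gasdermin E, in 8 groups of 3. WT control muscle without injury gave the remaining 3, which by the study's account came from the opposite leg of injured mice, so that control and injured libraries may share animals and control muscle may carry a systemic response. The background strain of the WT mice was C57BL/6J, the KO was global by the study's account, and the genotype label of the same samples reads Gsdme knockdown. No KO muscle without injury was analysed here, so each KO value was set against injured WT muscle.

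Neutrophils are the first leukocytes to enter injured muscle, where they are drawn by chemokines that bind CXCR2 and give way to monocytes and macrophages. They mature in the bone marrow under G-CSF, the ligand of the receptor encoded by Csf3r, and reach the tissue with granules already filled, so that granule genes of the precursor stage are silent in circulating cells while S100a8, S100a9 and the receptor genes stay on. S100a8 and S100a9 encode the subunits of calprotectin, a metal-binding protein of the cytosol. Lcn2 encodes a lipocalin that binds bacterial siderophores, Mmp8 and Mmp9 encode a neutrophil collagenase and a gelatinase, and Retnlg encodes a resistin-like protein. Trem1 encodes a receptor that amplifies inflammatory signals through the adaptor Tyrobp, and Ly6g encodes the surface antigen by which mouse neutrophils are usually recognised.

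Values were TPM, a relative abundance per length of gene whose sum is equal in all libraries. They do not keep the sequencing depth, and no counting error could be given. Between 11785 and 14704 genes reached 1 TPM in a library, and the 50 most abundant genes held between 25.4% and 61.4% of the TPM. Gsdme, the targeted gene, ran from 1.28 to 2.17 TPM in KO D1 muscle and from 2.76 to 4.85 TPM in WT D1 muscle. The log2 difference of KO minus WT for Gsdme was -0.77 ± 0.19 at D1. It was smaller at each later day, with -0.70 at D4, -0.58 at D7 and -0.16 at D14, when the groups overlapped (1.27 to 1.96 TPM in KO and 1.46 to 2.26 TPM in WT muscle), and none of these was called (limma, adjusted p from 0.21 to 1). The labels do not say whether libraries of a group came from separate animals, although the design text calls them biological triplicates, so p-values measure the spread between these libraries. The study describes more than 1 sequencing batch and does not place the WT D1 libraries, so that batch and genotype on D1, or batch and injury in the comparison with control, cannot be told apart. The same limit holds for the step from D1 to D4 in WT muscle and for the difference of that step between genotypes. In such bulk tissue, fewer neutrophils and less RNA per neutrophil cannot be told apart either.

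Some libraries stood apart in most of the members. WT D1 replicate 3 was the lowest of the 6 D1 libraries in 8 of 10 members, and its 6 mature muscle fibre genes summed to 114377 TPM, a level inside the range of control muscle (113253 to 117690 TPM) and above the other D1 libraries (45248 to 70824 TPM). KO D1 replicate 3 was the highest D1 library in 9 of 10 members. WT D4 replicate 1 was the highest D4 library in 8 members, and KO D4 replicate 2 was the lowest in 7. The steps and genotype differences below are given without them where that moved a call or a value.

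**Figure D1:**
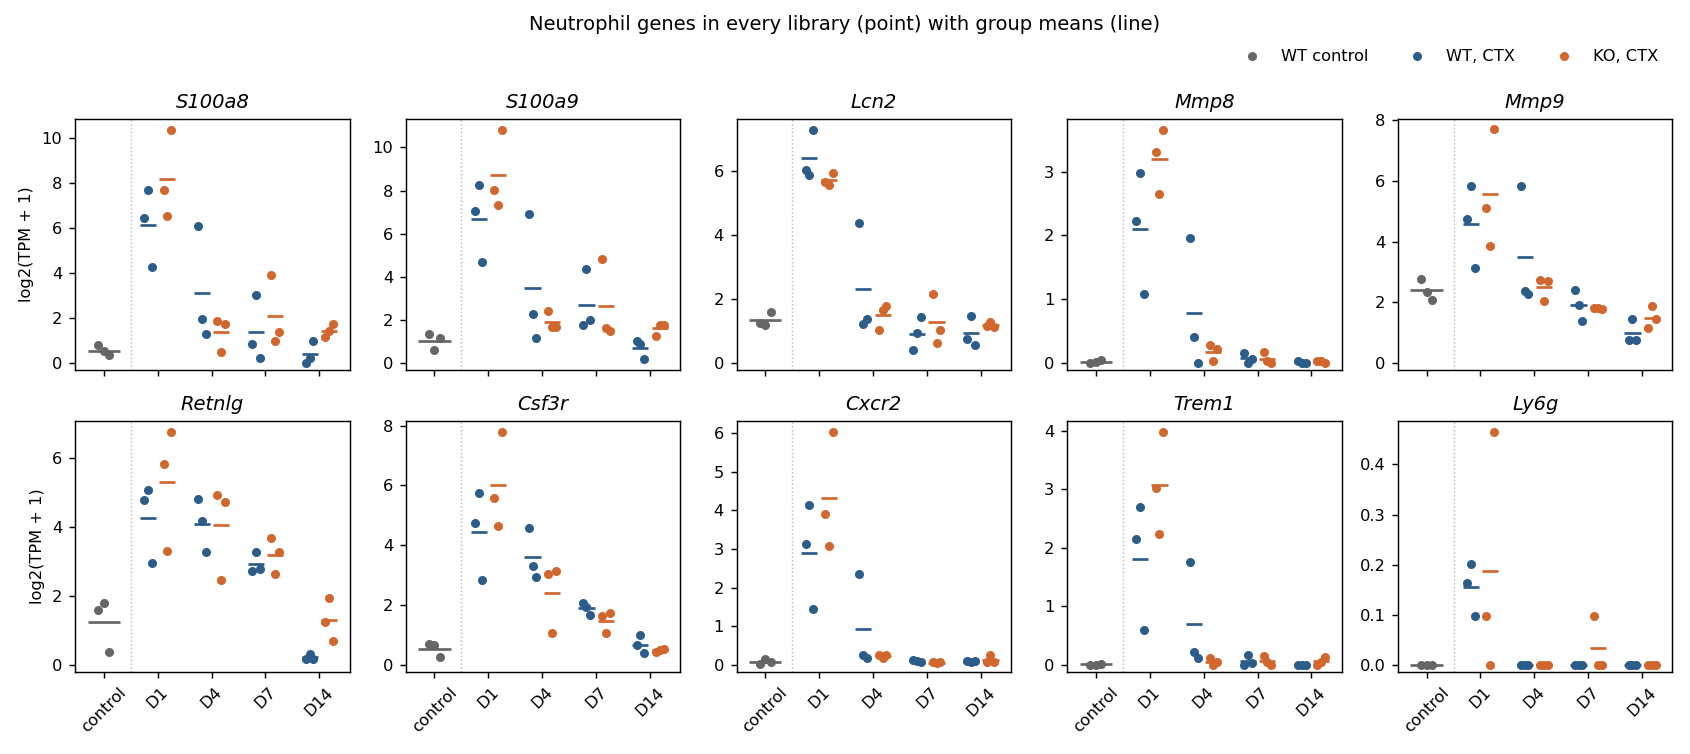
Each panel plots a neutrophil gene as log2(TPM + 1) on a y axis of its own, with a point for each library and a line for the group mean, for WT control muscle (grey, quantified in a separate table) and for WT (blue) and KO (orange) muscle on D1, D4, D7 and D14 after CTX (n = 3 per group). The group means were highest on D1 in both genotypes, and WT D4 replicate 1 stands above the other D4 libraries in most panels.

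The members were low in control muscle, where they summed to 12.07, 9.46 and 7.31 TPM. Which cells held this RNA was not tested. S100a8 was at 0.72, 0.43 and 0.27 TPM in the 3 control libraries, and S100a9 was at 1.56, 0.51 and 1.24 TPM. Cxcr2 did not exceed 0.10 TPM, Mmp8 did not exceed 0.03 TPM, and Ly6g was listed at 0 in all 3. Mmp9 was the most abundant member in control muscle, at 5.79, 4.10 and 3.24 TPM, ahead of Lcn2 at 1.39, 1.29 and 1.99 TPM and Retnlg at 1.99, 2.43 and 0.29 TPM. Retnlg and Lcn2 overlapped in their order.

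The comparison of WT D1 with control muscle asks what the injury does at the first time point. Every WT D1 library lay above every control library in all 10 members, a pattern that held for 64.2% of the 13041 genes tested in that table. The calprotectin pair had the largest differences of the members tested on the log2(TPM + 1) scale, which understates low genes. S100a8 reached 84.8, 205 and 18.2 TPM and S100a9 reached 132, 308 and 24.7 TPM in WT D1 muscle, so even the lowest D1 library stood more than an order of magnitude above control. The log2 difference of TPM + 1 was 5.58 ± 0.72 (SE) for S100a8 and 5.63 ± 0.76 for S100a9 (limma, adjusted p = 0.0015 and 0.0016, n = 3 against 3). The ratio of mean TPM was 217 for S100a8 and 140 for S100a9, with Cxcr2 between them at 175.

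Among the granule and secreted proteins, Lcn2 rose from the control values to 64.5, 57.3 and 155 TPM, a log2 difference of 5.05 ± 0.36 (limma, adjusted p = 0.00019). Its standard error was the smallest of all members tested. Retnlg rose to 26.5, 32.4 and 6.67 TPM (log2 difference 3.02 ± 0.58). Mmp9 rose to 26.1, 55.6 and 7.66 TPM, where the lowest D1 library was close to the highest control library at 5.79 TPM (log2 difference 2.17 ± 0.59, limma adjusted p = 0.014). Mmp8 was at 3.71, 6.89 and 1.11 TPM (log2 difference 2.08 ± 0.42, limma adjusted p = 0.0047). Without WT D1 replicate 3 the difference was 6.63 for S100a9, 4.61 for Lcn2, 3.68 for Retnlg and 2.89 for Mmp9, and S100a8, Mmp8, Csf3r and Cxcr2 no longer passed the filter.

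Among the receptors, Csf3r was at 0.61, 0.59 and 0.20 TPM in control muscle and had a mean of 30.3 ± 25.3 TPM (SD, n = 3) in WT D1 muscle, a log2 difference of 3.99 ± 0.63 (limma, adjusted p = 0.0024). Csf3r was also the member whose value depended on the table, since the same WT D1 libraries gave values between 0.92 and 0.944 times as high in the table of injured muscle. For S100a8, S100a9, Lcn2, Mmp8, Mmp9 and Retnlg the same ratio was from 0.997 to 1. Cxcr2 had a log2 difference of 2.84 ± 0.57 (limma, adjusted p = 0.0047). Trem1 and Ly6g did not reach 1 TPM in 3 libraries of that table and were not tested, although Trem1 went from at most 0.01 TPM to 3.45, 5.48 and 0.50 TPM.

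All 8 members tested were called higher at an adjusted p under 0.05, beside 55.4% of all genes tested. Mmp8, Cxcr2, Csf3r and S100a8 passed the filter on low values only through the D1 libraries, so for these the count is a description. The median of all genes lay at 0.66 on the log2 scale. With median-of-ratios scaling, which centred that median at -0.01, 2693 genes were called higher and 2816 lower instead of 7229 and 736, and 6 of the 7 members tested were called higher. Mmp9 was the exception, at 1.46 with an adjusted p of 0.061. The 8 members tested without that scaling had a median log2 difference of 3.50.

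Ly6g, the defining antigen, did not follow at a measurable level. It was at 0.12, 0.15 and 0.07 TPM in WT D1 muscle and at 0.07, 0 and 0.38 TPM in KO D1 muscle. Apart from 0.07 TPM in KO D7 replicate 1, all D4, D7 and D14 libraries were listed at 0. Its highest value was in KO D1 replicate 3, the library that was highest in 8 other members. The 11 genes of the precursor stage were low as well. They summed to between 2.09 and 13.5 TPM in the D1 libraries, and Elane, which encodes neutrophil elastase, was listed at 0 in all 6 of them, while Mpo (myeloperoxidase) did not exceed 0.08 TPM.

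The annotation (GENCODE M21, build GRCm38, the build that the labels call mm10) places S100a8 at chr3:90668978-90670035 on the plus strand and S100a9 at chr3:90692632-90695721 on the minus strand, 22596 bases apart. Trem1 at chr17:48232768-48246924 was the only member with an annotated overlap, a processed pseudogene on the other strand. The remaining members lie at chr2:32384633-32388252 (Lcn2, minus strand), chr9:7558456-7568485 (Mmp8), chr2:164940780-164955850 (Mmp9), chr16:48872621-48874496 (Retnlg), chr4:126024550-126044440 (Csf3r), chr1:74153989-74161246 (Cxcr2) and chr15:75155240-75159126 (Ly6g). RefSeq promoters on GRCm38.p6 were found for 9 of the 10 members.

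Because most members moved together, the 250 bases before the RefSeq start were searched on both strands for letters bound by factors of the granulocyte lineage. The C/EBP letters TTGCNNAA were found in 5 of the 9 members and in 9.6% of 32851 promoters. The members with a match were S100a9, Lcn2, Mmp8, Retnlg and Ly6g, and S100a8, Csf3r, Cxcr2 and Trem1 held none. Over the injured libraries, Lcn2 and Retnlg had the lowest correlations with the mean of the other members tested, and Ly6g did not reach 1 TPM. Whether the C/EBP letters bear on the shared movement was not tested. Ly6g was counted when any of its windows matched, whereas the share of promoters counts each window. The PU.1 and ETS letters GAGGAA were found in 7 of 9 members and in 23.3% of promoters, an NF-kB motif (3 G and 2 C around any 5 bases) in 4 of 9 and in 45.8%, and the AP-1 letters TGANTCA in 0 of 9 and in 6.7%. The windows of S100a9, Mmp8 and Retnlg are shown with the C/EBP and ETS letters in capitals, 5′ to 3′ on the strand of the gene. S100a9 and Mmp8 were called lower from D1 to D4 in KO muscle, and Retnlg was not called in that step in either genotype. S100a9 is at chr3:90695722-90695971 (minus strand), Mmp8 at chr9:7558179-7558428 (plus strand) and Retnlg at chr16:48872358-48872607 (plus strand).
S100a9: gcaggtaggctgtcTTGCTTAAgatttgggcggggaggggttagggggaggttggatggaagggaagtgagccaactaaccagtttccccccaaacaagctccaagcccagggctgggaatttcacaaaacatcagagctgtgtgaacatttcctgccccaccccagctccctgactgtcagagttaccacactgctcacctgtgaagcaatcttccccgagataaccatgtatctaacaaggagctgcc
Mmp8: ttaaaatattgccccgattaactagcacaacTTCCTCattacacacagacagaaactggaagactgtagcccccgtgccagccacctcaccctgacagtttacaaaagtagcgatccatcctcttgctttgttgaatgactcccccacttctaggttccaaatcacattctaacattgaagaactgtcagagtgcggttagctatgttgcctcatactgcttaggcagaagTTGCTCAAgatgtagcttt
Retnlg: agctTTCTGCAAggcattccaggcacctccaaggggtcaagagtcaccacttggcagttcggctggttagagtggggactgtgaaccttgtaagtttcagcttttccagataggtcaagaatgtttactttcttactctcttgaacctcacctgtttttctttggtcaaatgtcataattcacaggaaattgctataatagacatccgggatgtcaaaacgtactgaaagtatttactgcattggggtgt
A C/EBP match was present in all 3 windows, that of Retnlg included. Mmp8 alone of these also held the ETS letters, here as their reverse complement. A match in a window is a description of its letters and not a bound site.

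On D1 the members spread widely within each genotype and did so together. S100a8 ran from 18.1 to 205 TPM in WT muscle and was at 204, 90.8 and 1286 TPM in KO muscle. S100a9 was at 258, 160 and 1785 TPM in KO muscle, and the 2 genes together made up 0.307% of all TPM in KO D1 replicate 3 and 0.0043% in WT D1 replicate 3. The ratio of S100a9 to S100a8, levels corrected for length, stayed between 1.27 and 1.76 across all 6 D1 libraries. Both genes put the 6 libraries in the same order, and WT replicate 2 and KO replicate 1 were nearly equal in S100a8 at 205 and 204 TPM.

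The receptors shared the highest and the lowest library with calprotectin, but not the full order. Csf3r was at 25.6, 52.4 and 6.08 TPM in WT D1 muscle and at 46.8, 23.9 and 220 TPM in KO D1 muscle. Cxcr2 was at 7.72, 16.7 and 1.73 TPM in WT and at 13.9, 7.36 and 64.3 TPM in KO muscle, and Trem1 at 3.45, 5.48 and 0.50 TPM and at 7.16, 3.69 and 14.8 TPM. WT replicate 3 was lowest and KO replicate 3 highest in all 3 receptors, as in Mmp9 at 7.66 and 207 TPM. Mmp8 varied least of this set, from 1.11 to 6.88 TPM in WT and from 5.30 to 11.5 TPM in KO muscle.

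Lcn2 did not share the lowest library. WT D1 replicate 3, the lowest library in S100a8, S100a9, Mmp8, Mmp9, Retnlg, Csf3r, Cxcr2 and Trem1, was the highest in Lcn2 at 155 TPM. The other 5 D1 libraries lay between 46.4 and 64.4 TPM, with KO D1 replicate 3 at 59.9 TPM. Lcn2 is also made by cells other than neutrophils, such as epithelial and endothelial cells and macrophages, and which cells held it here was not tested. Over the 24 injured libraries the correlation of each member with the mean of the other tested members was 0.95 to 0.97 for S100a8, S100a9, Mmp8, Mmp9, Csf3r, Cxcr2 and Trem1, 0.85 for Lcn2 and 0.76 for Retnlg. Taken as deviations from the group means, so that the shared time course does not enter, the same correlation was 0.34 for Lcn2, 0.75 for Retnlg and between 0.85 and 0.94 for the rest. These libraries share groups and a common scaling, so the coefficients are a description.

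**Figure D2:**
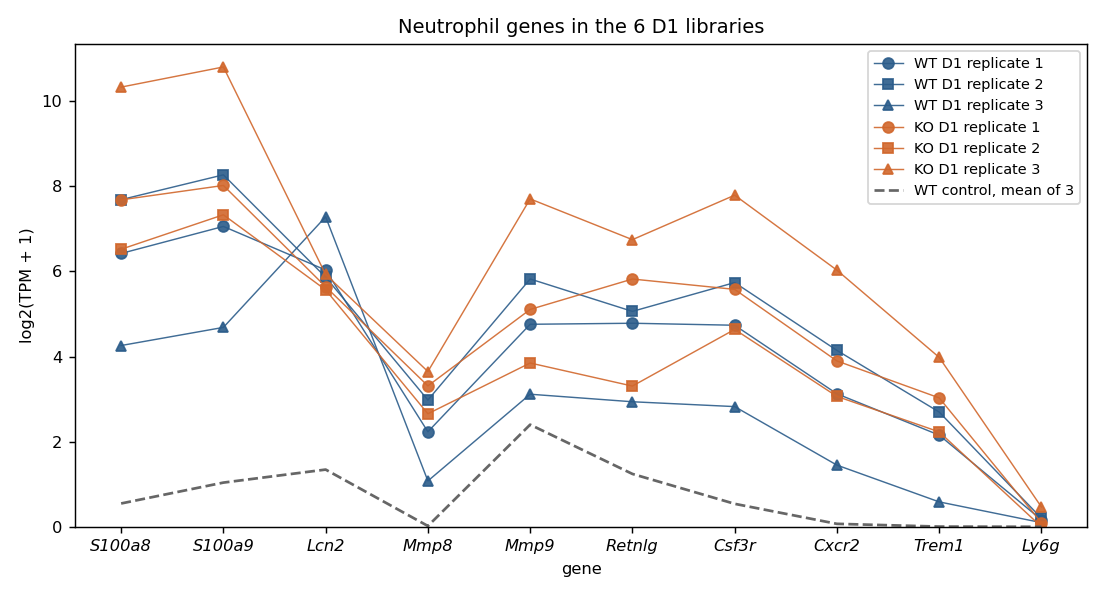
The 10 neutrophil genes (x axis) are plotted as log2(TPM + 1) in each of the 3 WT (blue) and 3 KO (orange) D1 libraries, with lines that join the genes of 1 library and the mean of the 3 control libraries dashed. WT replicate 3 (blue triangles) is the lowest library in 8 genes and the highest in Lcn2, at 155 TPM, and KO replicate 3 (orange triangles) is the highest in the other 9.

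Markers of other leukocytes spread with the members in part. The 6 monocyte genes summed to 551, 1092 and 187 TPM in WT D1 muscle and to 721, 355 and 508 TPM in KO D1 muscle, so that the WT libraries ranked as they did for most members and KO replicate 3, the highest in 9 members, did not lead. The 8 macrophage genes summed to between 491 and 1485 TPM in the D1 libraries, with KO replicate 3 at 1251 TPM. The 4 eosinophil genes, low throughout, had the same highest and lowest library as S100a8, and were at 24.8 TPM in KO replicate 3 and between 0.97 and 6.79 TPM in the other D1 libraries. The part of cell composition in the spread was not tested.

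The genotype comparison on D1 asks whether loss of Gsdme changes the first wave. Means were higher in KO muscle for 8 of the 9 members tested, by 2.06 ± 1.16 for S100a8, 2.05 ± 1.24 for S100a9, 1.57 ± 0.71 for Csf3r, 1.42 ± 0.64 for Cxcr2, 1.27 ± 0.46 for Trem1, 1.11 ± 0.41 for Mmp8, 1.03 ± 0.74 for Retnlg and 0.99 ± 0.86 for Mmp9 on the log2 scale, and the difference for Lcn2 was -0.68 ± 0.60. None was called (limma, adjusted p = 0.87 for all 9, beside 0.00636% of all genes), and 4 had an unadjusted p under 0.05, namely Trem1, Mmp8, Cxcr2 and Csf3r, beside 5.38% of all genes. WT and KO libraries overlapped in all 10 members, while 3.33% of all genes had every KO library above WT and 3.38% below. Without WT replicate 3 and KO replicate 3, an alternative chosen after the data were seen, the difference was 0.05 for S100a8, 0.01 for S100a9 and -0.13 for Csf3r, and Mmp9, Retnlg and Cxcr2 were also below 0. No member was called without them either.

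From D1 to D4 the log2 difference was negative for every member tested in both genotypes. Most were called lower in KO muscle and 3 in WT muscle, and the difference between these steps, given below, was not called for any member. S100a8 was at 2.63, 0.40 and 2.35 TPM and S100a9 at 4.31, 2.13 and 2.13 TPM in KO D4 muscle, log2 differences from D1 of -6.81 ± 1.16 and -6.82 ± 1.24 (limma, adjusted p = 0.00085 and 0.0014). Trem1, at most 0.08 TPM in KO D4 muscle, fell by 3.03 ± 0.46 on the log2 scale. Cxcr2 was at 0.20, 0.12 and 0.20 TPM (log2 difference -4.10 ± 0.64), Mmp8 did not exceed 0.22 TPM (-3.03 ± 0.41), and Lcn2 was at 1.03, 2.15 and 2.44 TPM (-4.22 ± 0.60). Csf3r at 7.18, 1.07 and 7.70 TPM (-3.60 ± 0.71) and Mmp9 at 5.68, 3.14 and 5.48 TPM (-3.06 ± 0.86) fell as well and kept higher levels than Cxcr2, Mmp8 and Trem1. Of the 9 members tested, 8 were called lower in KO muscle, beside 12.2% of all genes. Mmp8, Cxcr2 and Trem1 passed the filter mainly through the D1 libraries (6 of 7, 6 of 7 and 5 of 6 libraries at 1 TPM), so their fall was favoured by the selection and the count is a description. Without KO D1 replicate 3 the difference was -5.74 for S100a8, -5.77 for S100a9, -2.71 for Csf3r and -3.25 for Cxcr2, and without KO D4 replicate 2 it was -6.38, -6.69, -2.93 and -4.07. The fall of Mmp9 lost its call without KO D1 replicate 3 or KO D4 replicate 2 (limma, adjusted p = 0.141 and 0.0592), and Retnlg gained one without KO D1 replicate 2 (-2.25, limma adjusted p = 0.0281).

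In WT muscle 1 library stood apart in the same step. S100a8 was at 67.2, 2.83 and 1.40 TPM on D4 and S100a9 at 120, 3.84 and 1.26 TPM, so replicate 1 was still inside the D1 range while replicates 2 and 3 were near the KO D4 values. The same replicate held 55.4 TPM of Mmp9 against 4.17 and 3.79 TPM, 19.6 TPM of Lcn2 against 1.33 and 1.61 TPM, 4.06 TPM of Cxcr2 against 0.20 and 0.12 TPM, and 2.37 TPM of Trem1 against 0.16 and 0.08 TPM. Its monocyte genes summed to 361 TPM against 152 and 102 TPM and its macrophage genes to 3355 TPM against 1964 and 1588 TPM, and its muscle fibre genes were the lowest of all D4 libraries at 25695 TPM. The part of these cells in the result was not tested.

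With that library included, 3 of the 9 members tested were called lower from D1 to D4 in WT muscle, beside 5.27% of all genes. With median-of-ratios scaling the split over all genes was 1772 higher and 2084 lower instead of 2292 and 828. The 3 members were Lcn2 (-4.07 ± 0.60 on the log2 scale, limma adjusted p = 0.00019), Cxcr2 (-1.98 ± 0.64, limma adjusted p = 0.034) and Mmp8 (-1.31 ± 0.41, limma adjusted p = 0.030), and for Cxcr2 and Mmp8 the same selection through D1 holds. S100a8 had a log2 difference of -3.02 ± 1.16 and S100a9 of -3.21 ± 1.24 with adjusted p of 0.074 and 0.076 in limma. Without WT D4 replicate 1, 6 members were called, with S100a8 at -4.52 and S100a9 at -4.94. Without WT D4 replicate 1 and WT D1 replicate 3 together, 7 were called. Without WT D1 replicate 1 or 2, or WT D4 replicate 2 or 3, only Lcn2 was called.

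**Figure D3:**
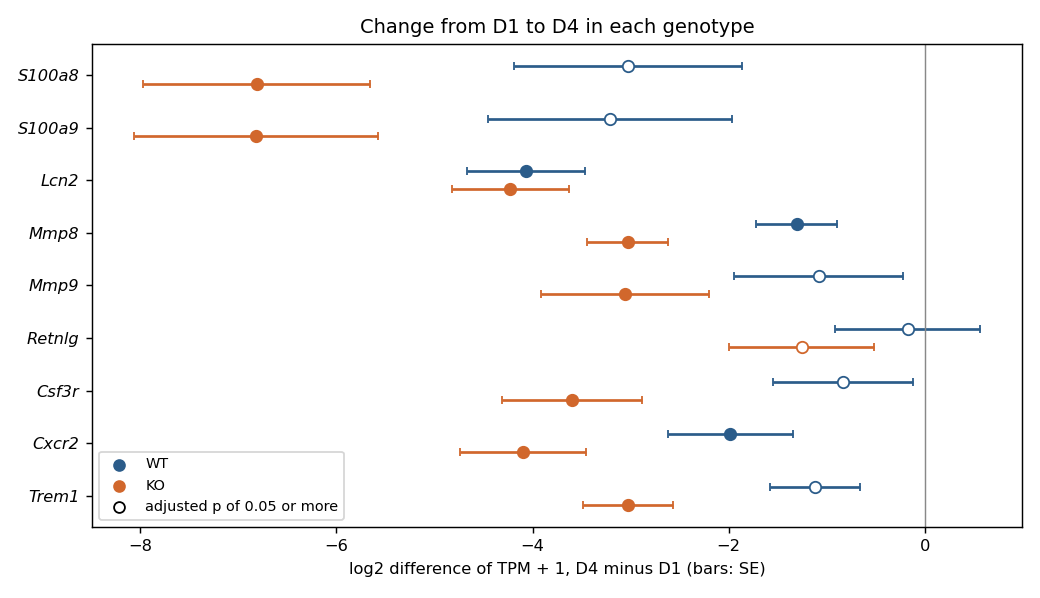
The x axis gives the log2 difference of TPM + 1 between D4 and D1 for each of the 9 members tested, in WT (blue) and KO (orange) muscle, with bars for the standard error from limma and filled symbols where the adjusted p was under 0.05. Lcn2 fell by about the same amount in both genotypes (-4.07 and -4.22), whereas Retnlg was not called in either.

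The difference between these steps was tested directly. The step from D1 to D4 in KO muscle minus that in WT muscle was -3.79 ± 1.64 for S100a8, -3.60 ± 1.76 for S100a9, -2.76 ± 1.01 for Csf3r, -2.12 ± 0.90 for Cxcr2, -1.98 ± 1.22 for Mmp9, -1.91 ± 0.65 for Trem1, -1.72 ± 0.58 for Mmp8, -1.08 ± 1.05 for Retnlg and -0.16 ± 0.85 for Lcn2 on the log2 scale. None of the 9 was called (limma, adjusted p from 0.20 to 0.91, beside 0% of all genes), and 5 had an unadjusted p under 0.05, beside 23.3% of all genes. Without WT D4 replicate 1, KO D1 replicate 3 and WT D1 replicate 3, the difference was -0.28 for S100a8 and 0.16 for S100a9. On D4 itself, WT and KO libraries overlapped in all 10 members, while 2.77% of all genes had every KO library above WT and 11.2% below, and no member was called (limma, adjusted p from 0.28 to 0.97, beside 0% of all genes). The D4 difference was -1.73 ± 1.16 for S100a8 and -1.55 ± 1.24 for S100a9, and without WT D4 replicate 1 it was -0.24 and 0.18.

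Retnlg was not called lower from D1 to D4 in either genotype. It was at 27.0, 16.96 and 8.67 TPM in WT D4 muscle and at 29.4, 4.48 and 25.5 TPM in KO D4 muscle, inside the range of D1 libraries from 6.66 to 106 TPM in all but KO replicate 2. Its log2 difference from D1 to D4 was -0.18 ± 0.74 in WT and -1.26 ± 0.74 in KO muscle (limma, adjusted p = 0.90 and 0.23). On D7 it was still at 5.60, 8.62 and 5.83 TPM in WT and at 11.9, 5.16 and 8.55 TPM in KO muscle, above all control libraries, which were quantified in the other table. By D14 it was at 0.13, 0.25 and 0.11 TPM in WT muscle, a log2 difference from D7 of -2.70 ± 0.74 (limma, adjusted p = 0.015). It was the only member called in that step, beside 30.9% of all genes called lower. With median-of-ratios scaling the split over all genes was 824 higher and 1366 lower instead of 145 and 4855, and Retnlg was again called. The call was lost without WT D7 replicate 1 or WT D14 replicate 3 (limma, adjusted p = 0.058 and 0.071).

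In KO muscle the same step of Retnlg was -1.90 ± 0.74 (limma, adjusted p = 0.19) and none of the members was called, beside 0.477% of all genes called lower. Csf3r ran from 6.56 to 22.7 TPM in WT D4 muscle, from 2.14 to 3.21 TPM in WT D7 muscle and from 0.30 to 0.97 TPM in WT D14 muscle, and followed a similar decline in KO muscle from 1.07 to 7.70, from 1.06 to 2.29 and from 0.34 to 0.45 TPM. From D4 to D7 no member was called in WT muscle, beside 9.31% of all genes called lower, with an unadjusted p under 0.05 for Csf3r (-1.72 ± 0.71) and Lcn2 (-1.41 ± 0.60), beside 33.5% of all genes. In KO muscle no member and 0% of all genes were called in that step, and no member had an unadjusted p under 0.05.

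Retnlg belongs to a family of similar genes, and reads shared between them could have been assigned to either. Its relative Retnla moved differently, from 76.5 to 128 TPM in control muscle to between 10.5 and 32.8 TPM on D1 and between 49.1 and 417 TPM on D4. Retnlb did not exceed 0.10 TPM. Retn, the resistin gene of fat cells, is treated with D14.

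On D7 scattered libraries still carried calprotectin. S100a8 was at 0.80, 7.18 and 0.18 TPM in WT and at 14.0, 0.96 and 1.60 TPM in KO muscle, and S100a9 at 2.34, 19.6 and 2.98 TPM and at 27.7, 2.07 and 1.81 TPM. KO D7 replicate 1 was highest of its day in 6 of 10 members. It was also the only injured library with more than 2 TPM of both Camp and Ngp, granule genes of precursor neutrophils, at 4.58 and 7.28 TPM, and its 11 precursor genes summed to 20.4 TPM against at most 1.44 TPM in the other D7 libraries. Cxcr2 and Trem1 did not follow in that library, at 0.04 and 0.11 TPM. The genotype difference on D7 was from -0.42 ± 0.71 (Csf3r) to 0.71 ± 1.16 (S100a8), and no member was called, beside 0% of all genes. Only Cxcr2 had no overlap, with WT above KO at values of at most 0.08 TPM, beside 14.6% of all genes lower in KO.

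On D14 S100a8, S100a9 and Retnlg were higher in every KO library than in every WT library. S100a8 was at 0, 0.18 and 0.96 TPM in WT and at 1.22, 1.67 and 2.33 TPM in KO muscle. S100a9 was at 0.99, 0.82 and 0.14 TPM in WT and at 1.41, 2.35 and 2.43 TPM in KO muscle. Retnlg was at 1.34, 2.84 and 0.62 TPM in KO muscle, 9.80 times the WT mean. These 3 of 10 members stand beside 7.37% of all tested genes with KO above WT without overlap. The log2 differences were 1.03 ± 1.16 for S100a8, 0.92 ± 1.24 for S100a9 and 1.07 ± 0.74 for Retnlg, none of them called (limma, adjusted p = 1 for each, beside 0% of all genes).

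Gsdme itself overlapped between the genotypes on that day. The levels behind this difference were small, with S100a8 and S100a9 in KO D14 muscle at or below 2.43 TPM. The receptors did not share it, since Csf3r was at 0.57, 0.97 and 0.30 TPM in WT and at 0.34, 0.41 and 0.45 TPM in KO D14 muscle, and Cxcr2 and Trem1 did not exceed 0.19 TPM in either. Fat cell genes were higher in KO muscle as well, and not on D14 alone. On D7 their sum was between 22.1 and 32.65 TPM in KO and between 12.94 and 18.45 TPM in WT muscle. S100a8, S100a9 and Retnlg overlapped between the genotypes on D7. The 4 adipocyte genes summed to between 5.59 and 10.8 TPM in WT and between 38.6 and 160 TPM in KO D14 muscle. All 4 had an unadjusted p under 0.05 in limma, beside 2.06% of all genes, and none was called, beside 0% of all genes. Retn, the resistin gene, was at 1.07, 2.94 and 1.30 TPM in WT and at 10.7, 42.0 and 26.4 TPM in KO D14 muscle, the same direction as its relative Retnlg. On D4, Retn was highest in KO replicate 2 at 21.6 TPM, the library lowest in Retnlg at 4.48 TPM. The part of fat cells, or of reads shared between Retn and Retnlg, in the D14 values was not tested.

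Control muscle was quantified in the other table, so late values were not tested against it. Mmp9 was at 0.69, 1.73 and 0.69 TPM in WT D14 muscle and at 1.20, 2.65 and 1.71 TPM in KO D14 muscle, below its control values of 3.24 to 5.79 TPM. Lcn2, at 0.48 to 1.77 TPM in WT and 1.16 to 1.41 TPM in KO D14 muscle, overlapped its control values of 1.29 to 1.99 TPM.

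**Figure D4:**
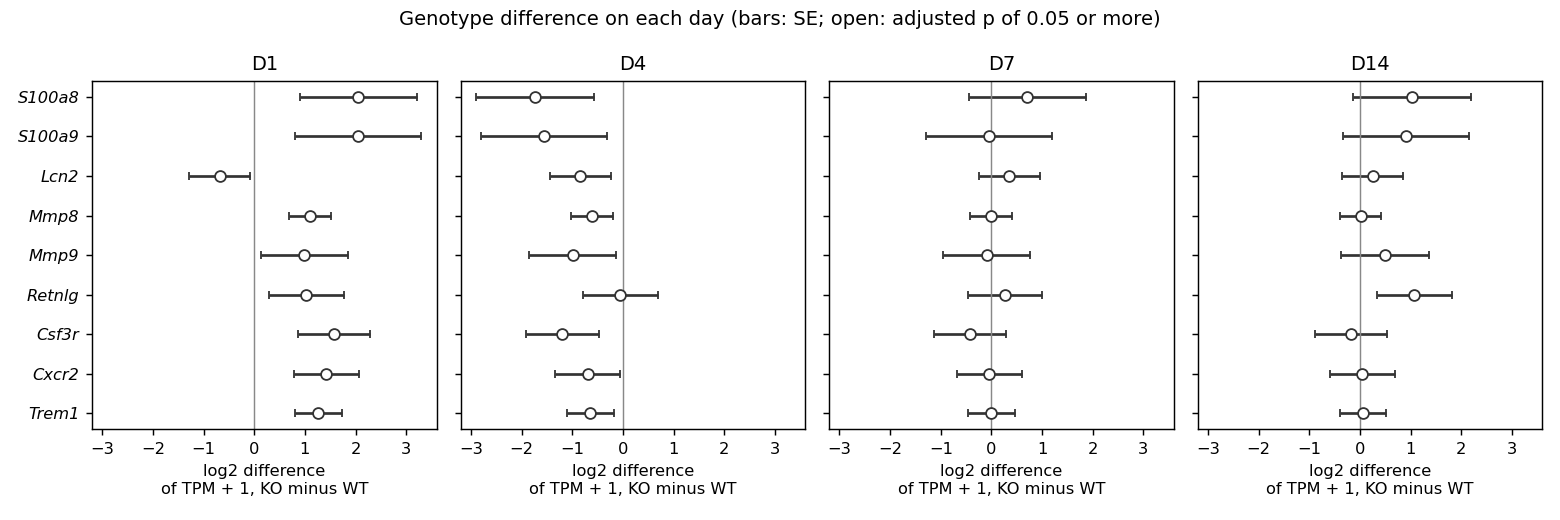
Each panel gives, for a day after CTX, the log2 difference of TPM + 1 between KO and WT muscle (x axis, bars are standard errors from limma, n = 3 against 3) for the 9 members tested. Open symbols mark an adjusted p of 0.05 or more, which holds for all, and 8 of 9 members lie above 0 on D1 and all 9 below 0 on D4.

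Averaged over the 4 days, the genotype difference of the members ran from -0.23 (Lcn2) to 0.58 (Retnlg) on the log2 scale. An exact two-sided permutation of genotype within days over 160000 assignments gave p from 0.149 (Retnlg) to 0.901 (Csf3r) for the 10 members, and for limma the adjusted p was from 0.86 to 0.97 with no member called, beside 0.00636% of all genes. For Retnlg the difference was 0.71 with median-of-ratios scaling (exact permutation p = 0.0448), 0.72 with quantile normalization (p = 0.0424) and 0.81 with the most abundant genes removed (p = 0.0458). Without KO D1 replicate 2 or KO D4 replicate 2 the exact permutation p for Retnlg was 0.0379 and 0.0348. Whether the genotype difference varied between days was not called for any member (limma F test, adjusted p from 0.53 to 0.76, beside 0% of all genes), and no member had an unadjusted p under 0.05.

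Genes of ligands that draw and prime neutrophils were also high on D1. Cxcl5, listed at 0 in all control libraries, was at 28.8, 48.4 and 5 TPM in WT D1 muscle and at 40.4, 20.4 and 46.4 TPM in KO D1 muscle. Cxcl1 ran from 2.67 to 22.5 TPM in WT and from 9.12 to 17.6 TPM in KO D1 muscle, and Cxcl2 was at 3.59, 8.59 and 0.71 TPM and at 8.17, 5.95 and 18.5 TPM. WT replicate 3 was again the lowest. Csf3, the gene of G-CSF itself, did not exceed 0.33 TPM in any library. Of 8 genes listed, 4 were tested against control and all 4 were called higher, beside 55.4% of all genes, with Cxcl5 the largest at 4.37 ± 0.66 and Pglyrp1, which encodes a peptidoglycan recognition protein reported to bind Trem1, the smallest at 1.94 ± 0.43. The 8 genes together summed to at most 2.09 TPM in a control library. Most of those tested therefore passed the filter only with the D1 libraries, and the count is a description. From D1 to D4, 6 of 6 tested were called lower in KO muscle, from -4.91 (Ppbp) to -1.96 (Pglyrp1), and 1 of 6 in WT muscle, Cxcl5 at -2.36 ± 0.80 (limma, adjusted p = 0.045), beside 5.27% of all genes. How far the ligand genes passed the filter through D1 in these libraries was not examined, so a fall may have been favoured by the selection.

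The KO fall of all 6 ligands stands beside 12.2% of all genes called lower, and in WT muscle WT D4 replicate 1 again held the high values, with 26.6 TPM of Cxcl5 against 0.85 and 0.29 TPM. Tyrobp, the adaptor of Trem1, and Timp1, an inhibitor of Mmp9 and other metalloproteinases, also rose on D1 (log2 differences 4.13 ± 0.53 and 5.28 ± 0.54, limma adjusted p = 0.0014 and 0.00099). Tyrobp, which macrophages also express, was at 737, 418 and 272 TPM in WT D4 muscle, inside or near its D1 range. Of the 9 partners and inhibitors listed, 8 were tested on D1 against control and 4 were called higher, no larger a share than the 55.4% of all genes, and from D1 to D4 in KO muscle 3 were called lower and 2 higher, beside 12.2% and 7.18% of all genes.

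Of 18 other genes of mature neutrophils, 10 were tested against control and 8 were called higher, beside 55.4% of all genes, up to 5.31 for Slfn4, with Wfdc21 the lowest at -0.12. From D1 to D4, 12 of 15 tested were called lower in KO muscle, from -4.35 (Clec4d) to 0.41 (G0s2), beside 12.2% of all genes, and 2 of 15 in WT muscle, beside 5.27%, where Slfn4 was lowest at -3.09. How far these genes passed the filter through the D1 libraries was not examined. A rise to D1 or a fall after it may have been favoured by the selection, so the counts are a description. Beside the mature neutrophil genes, 6 of 6 monocyte genes and 8 of 8 macrophage genes were called higher on D1 against the same 55.4%. Between D1 and D4 in WT muscle 4 of 8 macrophage genes were called higher and 1 lower, beside 14.6% and 5.27% of all genes. In KO muscle 0 of 8 were called higher and 1 lower in that step, beside 7.18% and 12.2% of all genes.

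**Figure D5:**
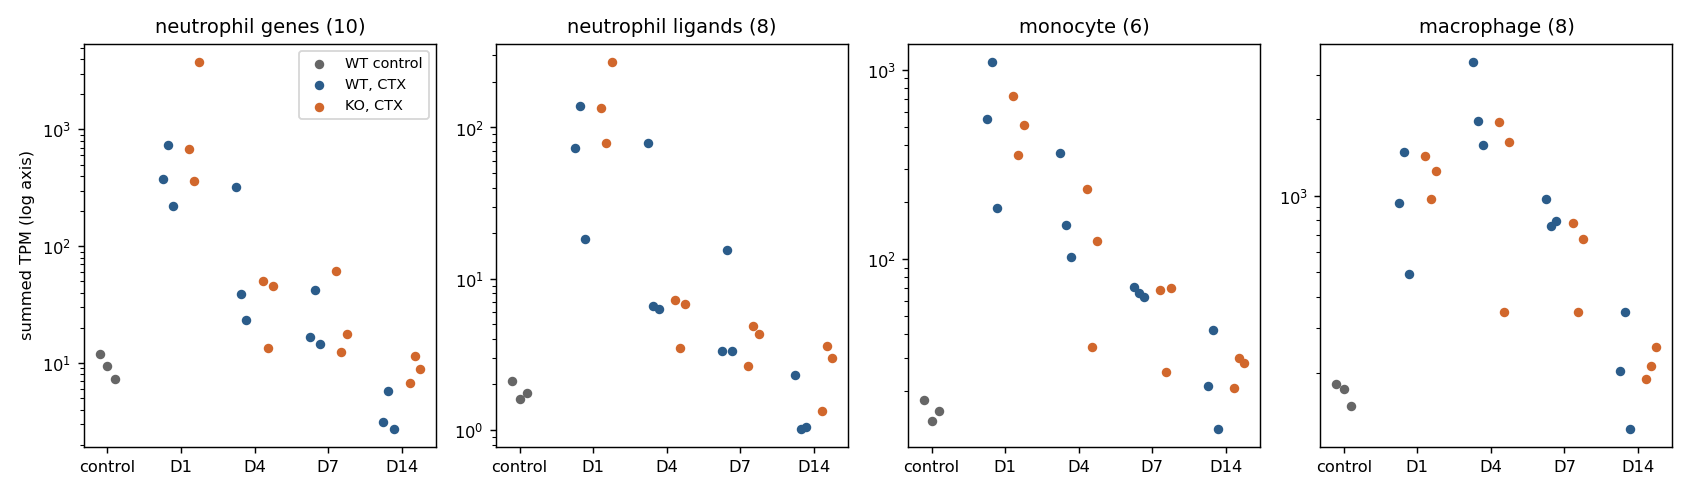
Summed TPM (log axis, a separate scale in each panel) of the 10 neutrophil genes, 8 neutrophil ligands, 6 monocyte genes and 8 macrophage genes is plotted for each library of WT control (grey), WT (blue) and KO (orange) muscle. The neutrophil genes peaked on D1, from 221 to 3756 TPM, whereas the macrophage genes peaked on D4 in WT muscle at 1588 to 3355 TPM.

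The genes whose log2 values were most like the mean of the members over the 24 injured libraries were Trim30b, Nlrp3, Ccr1, Hrh2 and Atp8b4, with r from 0.984 to 0.975. Over the 18 libraries of D4, D7 and D14, where the D1 peak does not enter, 1 of the 10 most alike over all 24, Trim30b, was again among the 10 most alike. The libraries share groups and scaling, so this likeness is a description.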

How the data were processed

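Total RNA of 27 muscle libraries was sequenced. The authors deposited TPM per gene in 2 tables, 1 of the 24 injured libraries and 1 of the 3 control and 3 WT D1 libraries. The labels name mm10 as the genome build; the aligner and the counter are not given in the sources used here. Depth per library is unknown, and the number of libraries limits the precision. Genes at 1 TPM or more in at least 3 libraries were tested on log2(TPM + 1), which understates the change of low genes, with limma 3.58.1 in R 4.3.3, with group means over 8 injured groups or, for control, within its own table, and Benjamini-Hochberg adjustment over all genes at 0.05. Genotype was permuted exactly within days; 3 against 3 on 1 day cannot go below p = 0.1. The code was tested on simulated data. Alternatives are in the closing section. The members and lists were chosen with earlier results of these data known. All members are named in the text. Of the other lists only some genes are named, and most cell type lists are given as sums or counts.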

Additional observations from a re-analysis of the deposited data

How the results depend on the processing

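The TPM files hold no depth, so no counting error bounds these values, and low genes are the least certain. Causes of the changes below were not tested. The count of members called from D1 to D4 in WT muscle was 3, and it was 1 with no filter, 6 with median-of-ratios scaling, 6 with quantile normalization, 5 with abundant genes removed, 1 with only the groups compared, 7 without WT D1 replicate 3 and WT D4 replicate 1 (chosen after the data were seen), and 1 to 6 when single replicates were left out. From D4 to D7 in WT muscle it was 3 with library quality weights and 1 with only the groups compared, instead of 0. From D7 to D14 it was 3 and 4 in WT muscle instead of 1 (0 to 1 without single replicates), and 2 and 1 in KO muscle instead of 0. Against control it was 4 to 8 without single replicates, since only 4 members passed the filter when a WT D1 library was left out, and 7 without WT control replicate 2, where Mmp9 lost its call (limma, adjusted p = 0.0502). From D1 to D4 in KO muscle it was 7 to 9 without single replicates instead of 8, 7 with library quality weights, where Mmp9 lost its call (limma, adjusted p = 0.053), and 6 with only the groups compared, where Csf3r and Mmp9 did (0.0885 and 0.118). The number of members with an exact permutation p under 0.05 was 1 instead of 0 with median-of-ratios scaling, quantile normalization and abundant genes removed, and 0 to 1 without single replicates. Mmp9 against control lost its call with no filter, median-of-ratios scaling and quantile normalization (limma, adjusted p = 0.0593, 0.0609 and 0.0725).

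Signs turned for these differences. Retnlg from D1 to D4 in WT muscle was 0.10 with quality weights and -0.84 to 0.23 without single replicates. On D1, without both replicates 3, Mmp9 was -0.81, Retnlg -0.36, Csf3r -0.13 and Cxcr2 -0.15, and Mmp9 ran from -0.087 to 1.84 without single replicates. On D4, S100a9 was 0.02 and Mmp9 0.26 with quality weights, and Retnlg was 0.27, 0.28, 0.18 and 0.43 with median-of-ratios scaling, quantile normalization, abundant genes removed and quality weights. Without single replicates on D4, S100a9 ran from -2.69 to 0.18, Lcn2 from -1.39 to 0.18, Mmp9 from -1.60 to 0.18, Retnlg from -0.49 to 0.74 and Cxcr2 from -1.07 to 0.017. The difference of the D1 to D4 steps was 0.16 for S100a9, 0.99 for Mmp9, 0.67 for Retnlg, 0.17 for Cxcr2 and 0.53 for Lcn2 without the 3 libraries that stood apart, and for Lcn2 0.27, 0.23, 0.086 and 0.75 with the same 4 alternatives, and -0.71 to 0.87 without single replicates. Of 390 values of single genes without single replicates, 356 kept sign and call, and of 650 under other alternatives, 604 did.

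Same-numbered WT and KO libraries did not deviate together (correlations from -0.401 to 0.395), so the numbers were not taken as pairs, and the replicate block left the counts of members called at 8 against control, 3 and 8 from D1 to D4 in WT and KO muscle, 1 from D7 to D14 in WT muscle and 0 in every genotype comparison. The setting with only the groups compared was not run for the average over days and the test across days, which use all groups.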

Other observations

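Ltf, a granule gene of precursor neutrophils, was at 5.54 TPM in KO D7 replicate 1, beside Camp at 4.58 and Ngp at 7.28 TPM. Mpo and Elane, which mark an earlier precursor stage, were at 0 and 0.07 TPM in the same library.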
